A study of Mus musculus with 5 samples.

Results

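Late-stage mouse pancreatic tumours of 3 genetic models were compared with normal pancreas inside 3 cell classes, T cells, macrophages and fibroblasts, and the genes that moved the same way in every tumour were sought. The classes were read from a few defining transcripts among droplet barcodes with at least 200 genes and at most 20% mitochondrial (mt-) unique molecular identifiers (UMIs, each a counted transcript molecule). T cells had at least 2 UMIs of Cd3d, Cd3e and Cd3g together. Macrophages had at least 3 UMIs of C1qa, C1qb and C1qc together, making up at least 10 per 10000 UMIs. Fibroblasts had at least 30 per 10000 UMIs of Col1a1, Col1a2, Col3a1 and Dcn together and no UMI of Ptprc, the pan-leukocyte phosphatase CD45. By these rules 2960 of the 7189 kept barcodes of the 4 libraries, out of 10718 in the whole series of 5 libraries, fell into at least 1 class: 241 T cells, 1939 macrophages and 800 fibroblasts.

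The groups were untreated mice, each giving 1 library of polyadenylated RNA on the 10x Genomics 3′ platform. Normal pancreas came from a mouse of 60 days on a mixed C57BL/6 and FVB background. The late KIC tumour was taken at 60 days and the late KPC tumour at 6 months, both on the same mixed background, and the late KPfC tumour at 60 days on C57BL/6. By general usage of these model names, a pancreatic Cre driver acts in all 3, with loss of Cdkn2a in KIC, loss of floxed Trp53 in KPfC and a point-mutant Trp53 in KPC; the labels give the model names only. No group had a second library, so no test between conditions was run and no p-value exists. A gene was called higher or lower when all 3 tumours differed from normal pancreas by at least 2-fold in that direction, and the intervals printed are exact 95% intervals that cover counting error only. The 3 comparisons share the single normal library, whose own deviations therefore enter all of them alike.

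Pancreatic tumours of these models are rich in connective tissue and in macrophages. Tissue-resident macrophages maintain a healthy organ, clear dying cells and carry scavenger receptors and lectins, whereas macrophages recruited from blood monocytes fill wounds and tumours and can take on arginine-consuming, matrix-degrading or inflammatory states. Fibroblasts of a healthy organ line vessels and ducts and hold adhesive and matrix-organising genes; in a tumour they can gain a contractile, myofibroblast character or an inflammatory one. T cells read peptide antigens and, in tumours, include regulatory cells that restrain the response.

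The kept barcodes numbered 2386 in normal pancreas, 836 in late KIC, 2933 in late KPfC and 1034 in late KPC, from libraries of 3488871 to 26749820 UMIs, late KPC being the shallowest. Between any 2 of these libraries 1 to 8 kept barcodes were shared, and a single barcode among the cells of the classes. Xist and Y-linked UMIs occurred together in normal pancreas (2966 and 217) and late KIC (4778 and 726), whereas late KPfC held 1 Xist UMI against 3203 Y-linked UMIs and late KPC 2629 against none; the design names 1 mouse per group, and whether animals were pooled or barcodes carried RNA of another library cannot be told apart.

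Macrophages made up 1.72% of kept barcodes in normal pancreas (41 cells, 1.24 to 2.32%), 24.4% in late KIC (204 cells, 21.5 to 27.5%), 49.1% in late KPfC (1441 cells, 47.3 to 51.0%) and 24.5% in late KPC (253 cells, 21.9 to 27.2%). Fibroblasts made up 18.3% (436 cells), 9.81% (82 cells), 5.76% (169 cells) and 10.9% (113 cells) in the same order, and T cells 4.74% (113 cells), 7.89% (66 cells), 1.19% (35 cells) and 2.61% (27 cells). The macrophage share was higher in every tumour and the fibroblast share lower in every tumour than in normal pancreas, while the T cell share was higher in late KIC and lower in the other two. Dissociation and loading can set such shares, and their part was not tested.

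The classes carried their defining transcripts in all 4 libraries. Among T cells, Lck, the kinase of the T cell receptor, stood at 143, 62.0, 111 and 97.1 UMIs per 1000000 of the class (CPM) and Cd2 at 194, 75.5, 151 and 194 CPM in normal pancreas, late KIC, late KPfC and late KPC. Macrophages held 580, 276, 373 and 186 CPM of Csf1r, the receptor that macrophages need to survive, and fibroblasts 188, 86.4, 160 and 145 CPM of Pdgfra. For these genes normal pancreas was not below any tumour, and Cd2 in late KPC stood at the same level. Other markers went either way. Cd3d, a gene of the class rule, stood at 381 CPM in normal T cells against 163, 513 and 1068 CPM. Col5a1 stood at 143 CPM in normal fibroblasts against 432, 152 and 412 CPM. Ms4a7 stood at 529 CPM in normal macrophages against 54.5, 40.5 and 13.1 CPM.

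Transcripts of other cells were present in the sums and moved with the groups, as the plot of marker lists shows. The 30 acinar secretory genes, which make digestive enzymes, took 37.9% of the T cell UMIs of normal pancreas, 5.25% of its macrophage UMIs and 4.56% of its fibroblast UMIs; in the tumours they took at most 0.0804% of any class, and 29 of the 30 were at 0 in late KPC T cells. The 12 epithelial or tumour markers summed to 137 CPM in normal T cells (Krt7, Krt19 and Tspan8 at 0) against 7652, 1203 and 24.3 CPM in late KIC, late KPfC and late KPC, where 11 of 12 were at 0. At least 2 UMIs of Epcam, Krt8, Krt18 and Krt19 together were carried by 34 of 66 late KIC T cells and 591 of 1441 late KPfC macrophages. Among fibroblasts they were carried by 41 of 436 in normal pancreas, 52 of 82 in late KIC, 134 of 169 in late KPfC and 8 of 113 in late KPC. In the same order 393, 25, 19 and 100 fibroblasts were free of other cell types' genes. Doublets were not removed, and the part of these transcripts in the results was not tested.

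**Figure D1:**
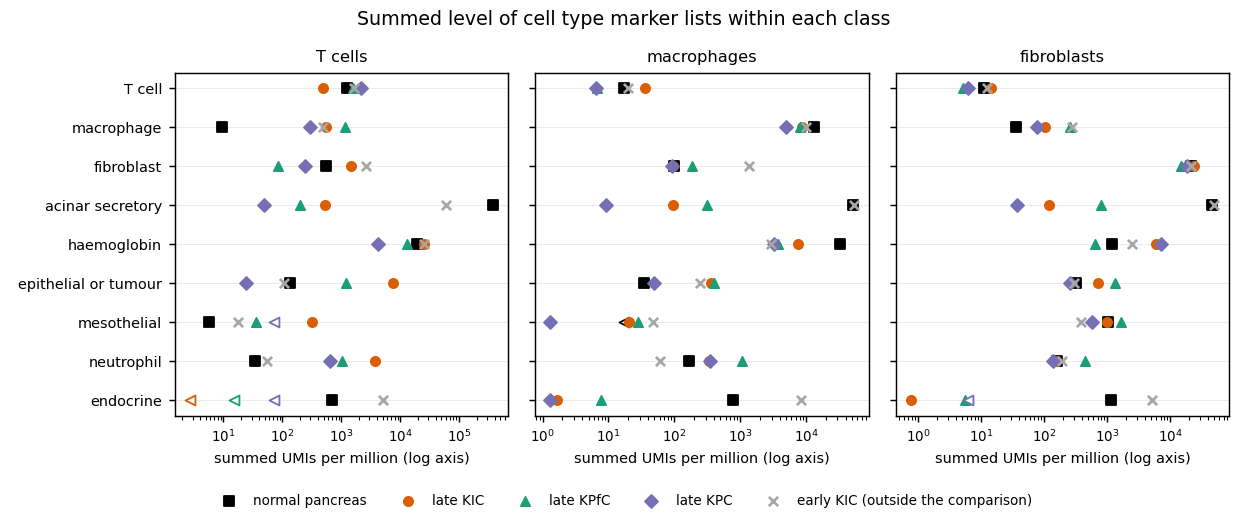
Summed level of 9 marker lists (rows) within T cells, macrophages and fibroblasts, in CPM on a log axis, with 1 point per library and early KIC, outside the comparison, as grey crosses; an open triangle pointing left stands at the level of 3 counts for a library with no UMI of the list. Acinar secretory transcripts in normal T cells lie at 378725 CPM, far to the right of the 3 tumours at 48.6 to 518 CPM.

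In macrophages 3491 genes passed the filter on low values (a level averaged over the 4 libraries of at least 25 CPM that would give at least 5 UMIs in each), of which 517 (14.8%) were called higher in all 3 tumours and 217 (6.22%) lower. A gene absent in normal pancreas can pass this filter on its tumour level alone, and a gene absent in the tumours on its normal level alone. The median log2 ratio over all measured genes was 0.26, 0.26 and 0.42 in late KIC, late KPfC and late KPC; with each tumour centred on its median, 360 genes (10.3%) were higher and 320 (9.17%) lower, so the higher share of the calls moved from 70.4% to 52.9%. Of the 217 lower genes 27 were acinar or haemoglobin genes. Normal pancreas contributed 41 cells with 173991 UMIs, and with counts of 1 and 2 raised to 3 counts the higher genes numbered 427.

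**Figure D2:**
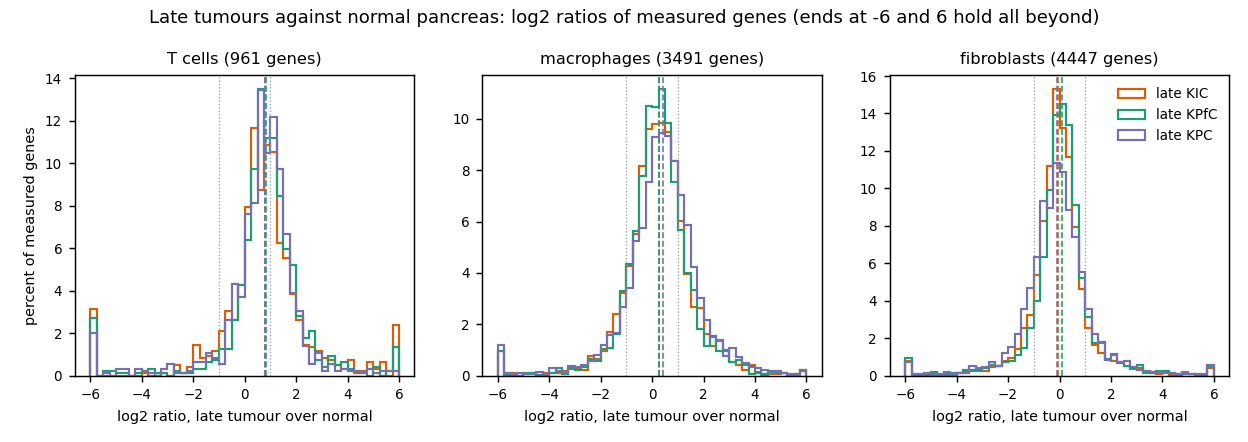
Distribution of log2 ratios of each late tumour over normal pancreas for the measured genes of each class (percent of genes per bin), with dashed lines at the medians and dotted lines at the 2-fold limits. The T cell medians lie at 0.78 to 0.84, close to the upper limit, while the fibroblast medians lie between -0.09 and 0.08.

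Most measured genes of resident macrophages were lower in all 3 tumours. Of 12 measured members of the tissue-resident list (13 listed), 9 were called lower and none higher. Over all measured genes 6.22% were lower. The list medians were -4.27, -2.42 and -3.35 on the log2 scale against 0.26 to 0.42 over all genes. Lyve1, Timd4, Cd163 and Cbr2 passed the filter only through their normal level, so their part in the count is a description. Lyve1, the hyaluronan receptor of perivascular macrophages, stood at 408 CPM in normal pancreas and 5.99, 42.0 and 7.86 CPM in late KIC, late KPfC and late KPC, at least 9.71-fold (7.46 to 12.5) lower. Folr2, the folate receptor beta, stood at 598 CPM against 26.2, 123 and 7.86 CPM. Both genes were lowest in the mixed-background tumours and kept more in late KPfC, and no tumour came near normal pancreas.

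The other called members followed the same direction. Timd4, a receptor for phosphatidylserine on dying cells, stood at 121 CPM in normal pancreas and 1.63, 19.4 and 9.17 CPM in the tumours. Cd163, the haemoglobin scavenger receptor, stood at 247 CPM against 15.3, 9.22 and 31.4 CPM, and Cbr2, a carbonyl reductase used as a resident marker, at 362 against 7.63, 23.7 and 11.8 CPM. Gas6, a bridging ligand for clearance of dying cells, Maf, a transcription factor of resident macrophages, F13a1 and Pf4 completed the 9, Pf4 at 2207 CPM against 209, 422 and 460 CPM. Mrc1, Fcna and Ccl8 were not called: Mrc1, the mannose receptor CD206, stood at 477 CPM in normal pancreas and 360, 198 and 736 CPM in the tumours, which lie on both sides of it.

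The lectins of the Cd209 family, pathogen receptors encoded in a cluster on chromosome 8, held 4 of the 12 largest falls. Cd209f had 92 UMIs (529 CPM) in the 41 normal macrophages, none in late KIC and late KPC and 3 in late KPfC among 12039467 UMIs (0.249 CPM; 2122-fold lower, 704 to 10478). Cd209g had 37 UMIs against 0, 1 and 0, Cd209d 37 against 13, 44 and 0, and Cd209b 61 against 5, 187 and 0. These counts come from sums of 173991 UMIs in normal pancreas and 1834868, 12039467 and 763286 in the tumours. All 4 passed the filter on their normal level alone, so their rank among the falls is a description only. At 0 counts Cd209f was at least 323-fold lower in late KIC and at least 135-fold lower in late KPC. These neighbouring genes resemble each other in sequence, so how reads were divided among them is uncertain.

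**Figure D3:**
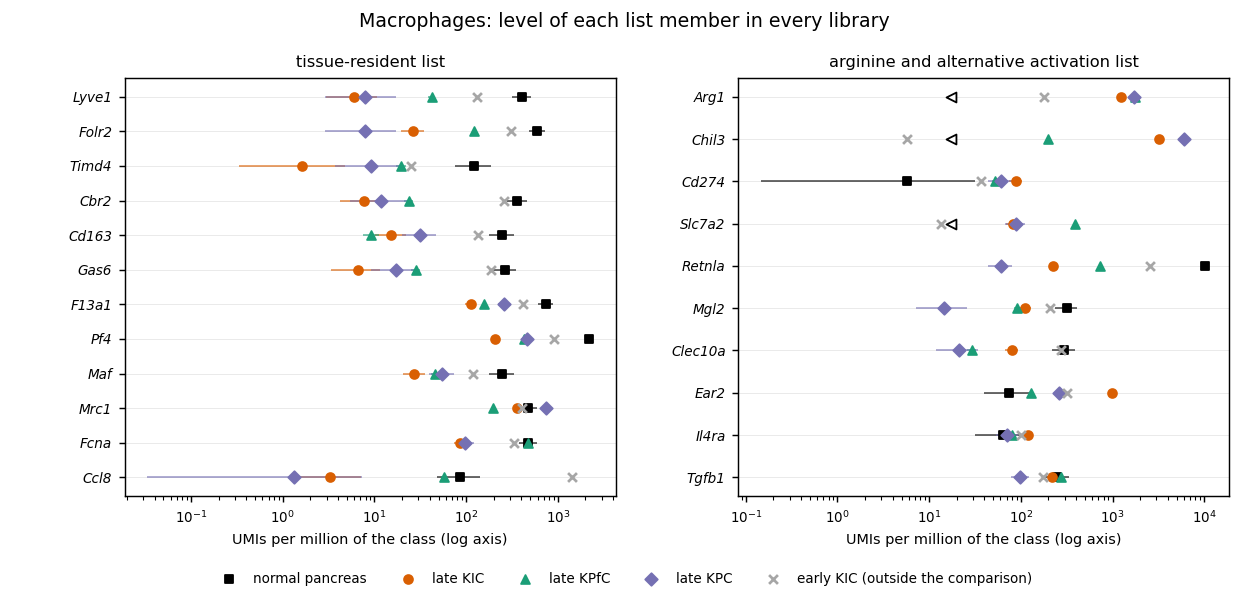
Level of each measured member of the tissue-resident list (left) and of the arginine and alternative activation list (right) in macrophages, in CPM on a log axis; points are libraries, bars exact 95% Poisson intervals, open triangles mark 0 counts drawn at 3 counts, and grey crosses are early KIC, outside the comparison. Normal pancreas lies right of all 3 tumours for the first 9 resident genes, while Arg1 and Chil3, with no normal UMI, lie at 200 CPM or more in the tumours.

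Alternative activation split into genes that were higher and genes that were lower. Of 10 measured members, 4 were called higher (Arg1, Chil3, Cd274 and Slc7a2) and 3 lower (Retnla, Mgl2 and Clec10a). The shares over all measured genes were 14.8% and 6.22%. Arg1 encodes arginase 1, which breaks down the arginine that T cells need. It had no UMI in the normal macrophages and stood at 1226, 1741 and 1718 CPM in late KIC, late KPfC and late KPC, at least 71.1-, 101- and 99.6-fold higher. The 3 tumours lay close together. Slc7a2, an arginine transporter, also had no normal UMI and stood at 81.7, 394 and 87.8 CPM, at least 4.74-fold higher.

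Chil3, a chitinase-like lectin of monocytes and macrophages, had no normal UMI and stood at 3185, 200.1 and 6036 CPM, so late KPfC, the C57BL/6 tumour, was lowest. Retnla, the resistin-like molecule that marks interleukin-4-driven macrophages, took the opposite course, with 10236 CPM in normal pancreas and 222, 735 and 60.3 CPM in the tumours. In late KPC 91.3% of its UMIs came from 1 cell. Mgl2 stood at 316 CPM in normal pancreas and 111, 90.2 and 14.4 CPM in the tumours, and Clec10a, its sister lectin, at 293 against 80.1, 29.1 and 21.0 CPM. Cd274, the checkpoint ligand PD-L1, had 1 UMI in normal pancreas (5.75 CPM) and 87.7, 52.2 and 60.3 CPM in the tumours.

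Most measured genes of the monocyte list were higher in all 3 tumours. Of 6 measured members (10 listed), 5 were called higher and Plac8 was not, beside 14.8% of all measured genes higher. Ccr2, the receptor by which monocytes leave the marrow, stood at 28.7 CPM in normal pancreas and 62.1, 145 and 98.3 CPM in late KIC, late KPfC and late KPC. That of late KIC was 2.16-fold higher with an interval of 0.90 to 6.79, so the interval includes equality. Fn1, fibronectin, stood at 74.7 CPM against 2070, 4393 and 3144 CPM, and Thbs1, thrombospondin 1, had 1 UMI in normal pancreas (5.75 CPM) against 482, 2551 and 3870 CPM. F10, the clotting factor X, had no normal UMI and 180, 448 and 307 CPM, at least 10.4-fold higher in each.

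Genes of hypoxia and glycolysis were higher together in macrophages. Of 18 measured members (21 listed), 16 were called higher, none lower, and Pfkp and Pgk1 were not called. Over all measured genes 14.8% were higher. The list medians were 2.60, 2.62 and 2.06 on the log2 scale. Centred on the median of all genes, 13 of the 18 remained higher, beside 10.3% of all measured genes. Glucose enters through Slc2a1 (GLUT1), which had 11.5 CPM in normal pancreas and 94.3, 70.9 and 81.2 CPM in the tumours, and is trapped by Hk2, at 92.0 CPM against 283, 335 and 253 CPM. Ldha, which turns pyruvate into lactate, stood at 155 CPM against 933, 788 and 699.6 CPM, and Slc16a3, which exports lactate, had 2 UMIs in normal pancreas (11.5 CPM) against 128, 131 and 131 CPM. All 3 tumours exceeded normal pancreas at every one of these steps, between 2.75-fold (Hk2, late KPC) and 11.4-fold (Slc16a3, late KPC, 3.07 to 95.4).

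Targets of the hypoxia-inducible factors outside glycolysis moved alike. Vegfa, the vessel growth factor, had no UMI in normal macrophages and stood at 163, 135 and 282 CPM, at least 7.84-fold higher. Bnip3, a mitophagy receptor, stood at 17.2 CPM against 126, 109 and 66.8 CPM, and Ndrg1 had 1 UMI (5.75 CPM) against 74.7, 90.5 and 60.3 CPM. Pgk1, another enzyme of the pathway, was higher in late KIC and late KPfC (135 and 193 CPM against 28.7 CPM) but stood at 34.1 CPM in late KPC. In late KIC and late KPfC macrophages, 64 of 204 and 591 of 1441 barcodes also carried at least 2 epithelial UMIs, and 2 of 253 did in late KPC; their part in the result was not tested. Of the 16 genes Slc2a1, Hk2, Gpi1, Slc16a3, Vegfa and Bnip3 were at or above the level of the remaining barcodes in every tumour.

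**Figure D4:**
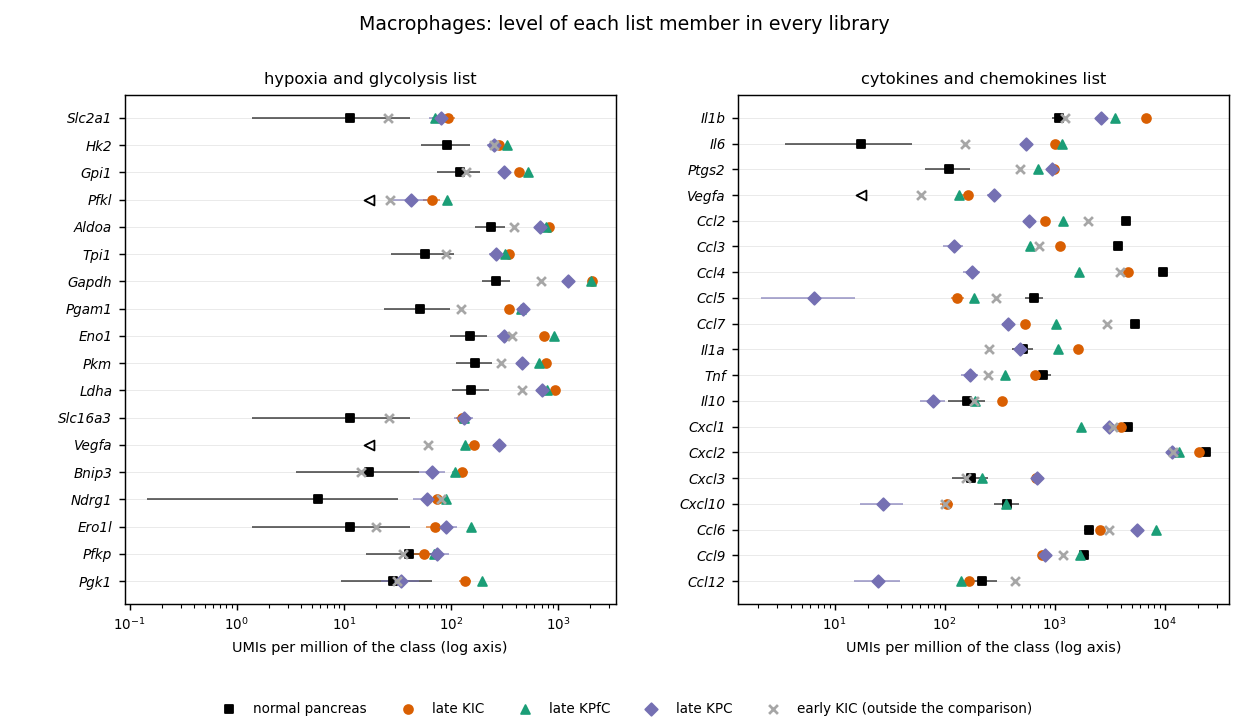
Level of each measured member of the hypoxia and glycolysis list (left) and the cytokine and chemokine list (right) in macrophages, drawn as in the plot of macrophage states. On the left normal pancreas is the leftmost of the 4 compared libraries for the 16 called genes; on the right Il6 lies at 552 to 1166 CPM in the tumours and Ccl3, Ccl4 and Ccl5 are lowest in late KPC.

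The promoters of these genes were read for the core letters of the hypoxia response element, ACGTG, on both strands of the 250 bases before each start in the RefSeq table (GRCm38.p6). Of the 16 called genes 15 matched an entry, and 10 held the letters in at least 1 of their promoters, against 16.6% of all 32851 promoters of the table and 18.5% of its 27025 genes. The letters CACGTG hold the core on both strands and count as 2 matches. The promoters of Hk2 and Bnip3, each the gene's single entry, are shown as examples with matches: Hk2 lies at chr6:82774455-82774704 (minus strand, 2 matches) and Bnip3 at chr7:138909507-138909756 (minus strand, 2 matches). Sequences run 5′ to 3′ on the gene's strand, with matches in capitals. A match is a description of letters and not evidence of binding.
Hk2: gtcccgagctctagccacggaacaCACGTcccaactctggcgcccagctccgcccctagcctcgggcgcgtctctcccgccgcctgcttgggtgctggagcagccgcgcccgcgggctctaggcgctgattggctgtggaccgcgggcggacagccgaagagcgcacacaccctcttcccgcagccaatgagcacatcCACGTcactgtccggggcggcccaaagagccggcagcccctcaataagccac
Bnip3: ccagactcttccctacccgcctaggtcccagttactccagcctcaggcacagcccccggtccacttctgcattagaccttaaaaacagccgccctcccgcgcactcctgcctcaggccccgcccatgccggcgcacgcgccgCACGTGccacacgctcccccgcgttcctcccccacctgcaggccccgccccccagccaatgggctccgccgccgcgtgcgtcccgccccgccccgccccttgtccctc

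Secreted signals moved in both directions. Of 19 measured cytokine and chemokine genes 4 were called higher (Il1b, Il6, Ptgs2 and Vegfa) and 5 lower (Ccl2, Ccl3, Ccl4, Ccl5 and Ccl7). Over all measured genes the shares were 14.8% higher and 6.22% lower. After centring 3 of the 19 were higher and 5 lower, beside 10.3% and 9.17% of all measured genes. Il6, the acute-phase cytokine, stood at 17.2 CPM in normal pancreas (3 UMIs) and 998, 1166 and 552 CPM in late KIC, late KPfC and late KPC. Ptgs2, the inducible cyclooxygenase COX-2, stood at 109 CPM against 983, 713 and 946 CPM. Il1b, the inflammasome cytokine, stood at 1086 CPM against 6741, 3539 and 2639 CPM, with 54.0% of the normal UMIs from 1 cell. It fell short of 2-fold after centring, with 2.43-fold in late KPC.

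All 5 lower chemokines attract monocytes or lymphocytes. Ccl2 stood at 4449 CPM in normal pancreas and 825, 1192 and 584 CPM in the tumours, and Ccl7 at 5328 CPM against 534, 1030.3 and 373 CPM. Ccl4 stood at 9753 CPM in normal pancreas and 4668, 1680.3 and 176 CPM in the tumours, a range wider among the tumours than between normal pancreas and late KIC (2.09-fold, 1.98 to 2.20). Ccl5 followed with 649 CPM against 131, 186 and 6.55 CPM. Among the genes not called were Tnf (782 CPM against 661, 357 and 170.3 CPM), Il10 and Cxcl2, at 23536 CPM in normal pancreas and 20377, 13644 and 11770.2 CPM in the tumours.

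Some interferon-induced transcripts were lower. Of 5 measured members (16 listed), Isg15, Ifit1 and Rsad2 were called lower and none higher, beside 6.22% of all measured genes lower. Bst2 and Ifi27l2a were not called. Ifit1 and Rsad2 passed the filter only with their normal level, so their part in the count is a description. Isg15, a ubiquitin-like modifier, stood at 989 CPM in normal pancreas and 250.2, 247 and 41.9 CPM in late KIC, late KPfC and late KPC. Ifit1, a sensor of foreign RNA, stood at 339 CPM against 12.5, 12.5 and 0 CPM, and Rsad2 (viperin) at 236 CPM against 56.7, 24.9 and 1.31 CPM. Ifnb1, interferon beta itself, had 35 UMIs (201 CPM) in normal macrophages against 4.36, 2.91 and 0 CPM, and 65.7% of the normal UMIs came from 1 cell. Isg15 and Rsad2 were lowest in late KPC, and Ifit1 and Ifnb1 had no UMI there, where 3 counts equal 3.93 CPM, above the Ifnb1 level of late KPfC.

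The promoters of Isg15, Ifit1 and Rsad2 each held the letters of the interferon-stimulated response element (TTTC, any 2 bases, TTTC, on either strand) in the same window, which 2.98% of all promoters did. Those of Isg15 (chr4:156200819-156201068, minus strand, 3 matches) and Ifit1 (chr19:34640639-34640888, plus strand, 2 matches) are shown with the matches in capitals; in Isg15 they lie on the opposite strand and so read as the reverse complement.
Isg15: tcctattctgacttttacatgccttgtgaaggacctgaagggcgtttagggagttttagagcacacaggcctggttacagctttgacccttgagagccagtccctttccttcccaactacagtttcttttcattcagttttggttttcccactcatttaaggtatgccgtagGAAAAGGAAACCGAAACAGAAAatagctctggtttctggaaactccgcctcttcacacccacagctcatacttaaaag
Ifit1: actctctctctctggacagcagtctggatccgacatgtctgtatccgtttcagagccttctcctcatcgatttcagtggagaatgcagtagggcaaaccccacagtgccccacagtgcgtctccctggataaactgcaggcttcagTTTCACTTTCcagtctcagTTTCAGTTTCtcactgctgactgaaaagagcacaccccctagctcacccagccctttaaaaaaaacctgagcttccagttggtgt

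Matrix-degrading enzymes and their inhibitor Timp1 were higher. Of 12 measured genes 7 were called higher (Mmp12, Mmp13, Mmp19, Timp1, Ctsl, Ctss and Adam8) and none lower. Over all measured genes 14.8% were higher and 6.22% lower. Mmp12, the macrophage elastase, had 1 UMI in normal pancreas (5.75 CPM) and 839, 611 and 600.04 CPM in the tumours; its ratio to late KPC was 104-fold with an interval of 18.6 to 4133. Mmp13, a collagenase, stood at 329 CPM in late KIC but at 32.3 and 38.0 CPM in the other tumours against 11.5 CPM in normal pancreas, where the intervals of the latter 2 ratios reach below 1. Ctsl, a lysosomal protease, stood at 213 CPM against 625, 686 and 993 CPM. After centring 6 of the 12 were higher, and 2 others, Mmp9 and Ctsb, were lower, beside 10.3% and 9.17% of all measured genes.

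Receptors for antibody complexes and debris were higher in 6 of 13 measured genes (Fcgr1, Fcgr4, Msr1, Marco, Clec4n and Trem1) and lower in none. The shares over all measured genes were 14.8% and 6.22%. Clec4n (dectin-2), which binds fungal mannans, stood at 46.0 CPM in normal pancreas and 635, 578 and 567 CPM in the tumours. Trem1, an amplifier of inflammation on myeloid cells, had 2 UMIs (11.5 CPM) against 186, 201 and 254 CPM. Marco had no normal UMI and 54.0, 230.5 and 444 CPM, but 1 cell gave 79.8% of its late KIC UMIs. Both complement peptide receptors, C3ar1 and C5ar1, were lower: C5ar1 stood at 1184 CPM against 223, 362 and 303 CPM.

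The lipid-associated list, named for macrophages that take up fat, was mixed. Of 13 measured members 5 were higher (Spp1, Fabp5, Fabp4, Cd9 and Lgals3) and Cd36 was lower, beside 14.8% and 6.22% of all measured genes. Spp1, osteopontin, stood at 22.99 CPM in normal pancreas and 3678, 1099 and 3294 CPM in the tumours, but in late KIC and late KPfC the level was higher in the remaining barcodes than in macrophages. Cd36, the receptor for oxidised lipid, stood at 448 CPM against 3.81, 39.5 and 45.9 CPM. Trem2 (126 CPM against 159.7, 162 and 114 CPM) and Apoe (13799.6 CPM against 11882, 8324 and 9201 CPM) were not called.

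No MHC gene was called higher in macrophages. None of the 6 measured MHC class II genes was called: H2-Aa stood at 10322 CPM in normal pancreas and 6672, 2739 and 2308 CPM in late KIC, late KPfC and late KPC, below 2-fold in late KIC alone. Of 10 measured MHC class I genes H2-D1, H2-Q7 and H2-T23 were lower, H2-D1 at 3736 CPM against 1512, 1721 and 946 CPM. Immediate-early genes, which also respond to tissue dissociation, were lower in 7 of 20 members and higher in none. The 7 were Fos, Jun, Jund, Egr1, Atf3, Zfp36 and Klf6, and 6.22% of all measured genes were lower. Jun stood at 959.8 CPM against 198, 218 and 122 CPM. Of the 7 genes 6 had a RefSeq promoter. None of these promoters held TGACGTCA, the cyclic AMP response element, found in 1.55% of all promoters.

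Among the 12 higher genes ranked by their smallest ratio, 5 lay outside the lists. Saa3, the inflammation-induced serum amyloid, had no UMI in normal macrophages and stood at 893, 7541 and 2526 CPM in the tumours. Rgcc, a cell-cycle regulator, likewise had no normal UMI and 251, 514 and 434 CPM. The others were Lmnb1 (lamin B1), Mcemp1 and Plxdc2. On the lower side Lyz1, a lysozyme, stood at 1029 CPM against 47.4, 77.2 and 45.9 CPM, with 82.7% of the normal UMIs from 1 cell, and Fxyd2 at 259 CPM against 2.72, 8.97 and 2.62 CPM. Of the 72 named genes called higher and 46 called lower, 68 and 42 were also called among barcodes free of other cell types' genes; thinned to 1000 UMIs a cell, where 1051 genes could be measured, 41 of 71 and 23 of 43 were.

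In fibroblasts 4447 genes were measured, and 278 (6.25%) were called in each direction. The median log2 ratios lay between -0.09 and 0.08, and centring changed little (283 genes, 6.36%, higher and 287, 6.45%, lower). Mesothelial cells cover the organ and share many fibroblast transcripts. At least 2 UMIs of Msln, Upk3b, Lrrn4, Upk1b and Nkain4 were carried by 43 of 436 barcodes in normal pancreas but by 39 of 82 in late KIC, 137 of 169 in late KPfC and 23 of 113 in late KPC. Without these, 393, 43, 32 and 90 barcodes were left, and 299 genes were higher and 287 lower, 207 and 220 of them among the first 278; this alternative was chosen after the data were seen. Leaving out late KPfC instead gave 421 lower genes.

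Genes of quiescent, vessel-associated (adventitial) fibroblasts were lower in all 3 tumours. Of 15 measured members 12 were called lower and none higher, beside 6.25% of all measured genes in each direction. The list medians were -2.72, -3.10 and -3.32 on the log2 scale. Gsn, gelsolin, which severs actin filaments, stood at 19808 CPM in normal pancreas and 665, 316 and 377 CPM in late KIC, late KPfC and late KPC, 29.8- to 62.7-fold lower. Pi16, a marker of adventitial fibroblasts, stood at 2467 CPM against 215, 53.8 and 166 CPM, and Dpp4, its companion surface peptidase, at 222 CPM against 24.5, 18.1 and 20.5 CPM. All 3 tumours lay far below normal pancreas for these genes, the smallest ratio being 9.06-fold for Dpp4 in late KIC.

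Other members of the list were lower too. Cd34 stood at 903 CPM against 186, 241 and 94.2 CPM, Efemp1 (fibulin-3) at 1362 CPM against 72.6, 163 and 73.7 CPM, and Ebf1, a transcription factor of stromal cells, at 757 CPM against 103, 43.9 and 94.2 CPM. Dpt (dermatopontin) stood at 1421 CPM against 307, 110 and 131 CPM. Igfbp6 was the least changed in late KPfC, at 1426 CPM against 2914 CPM (2.04-fold, 1.96 to 2.13). Cd55 and Smpd3 were not called, and C3, the central complement component, ran the other way, at 1313 CPM in normal pancreas and 1854, 3892 and 2228 CPM in the tumours. Without mesothelial barcodes Mfap5 was no longer called.

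**Figure D5:**
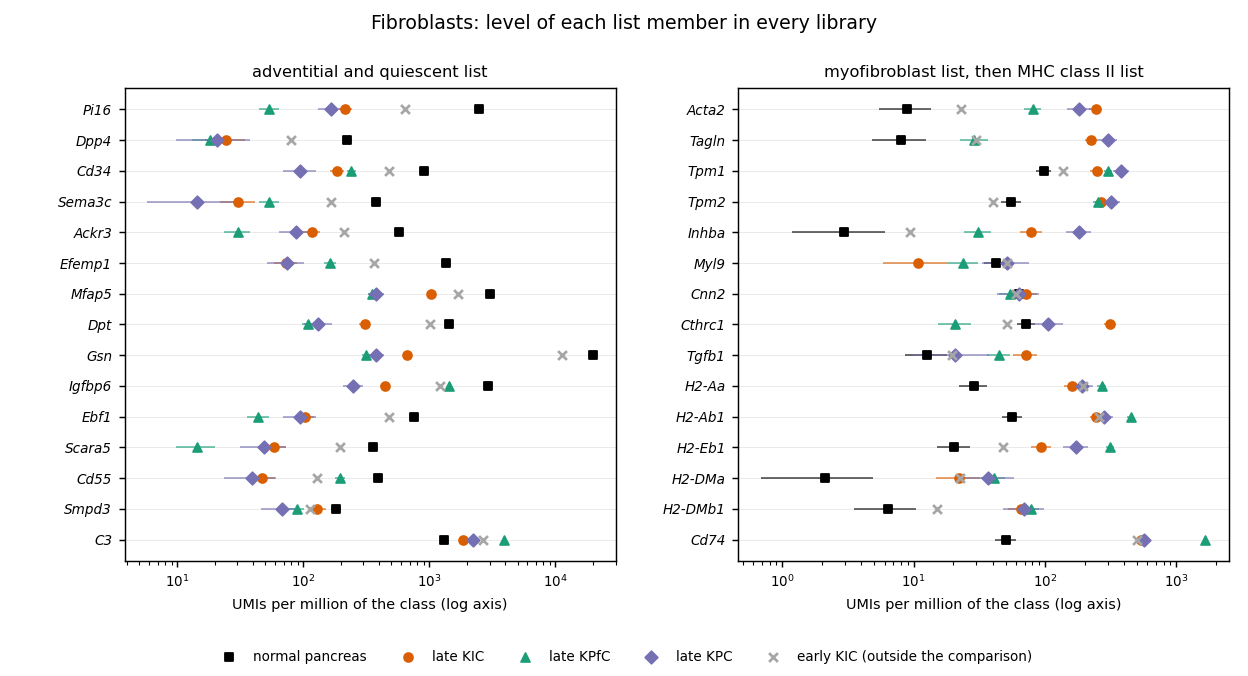
Level of each measured member of the adventitial list (left) and of the myofibroblast and MHC class II lists (right) in fibroblasts, in CPM on a log axis, drawn as in the plot of macrophage states. Gsn falls from 19808 CPM in normal pancreas to 316 to 665 CPM in the tumours, and Acta2 and Tagln lie right of normal pancreas in all 3.

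Part of the contractile programme was higher. Of 9 measured members of the myofibroblast list 5 were called higher and none lower, beside 6.25% of all measured genes in each direction. Among the uncalled members were Myl9, Cnn2 and Tgfb1. Acta2, smooth muscle actin, stood at 8.84 CPM in normal pancreas and 242, 80.5 and 182 CPM in the tumours, and Tagln (transgelin) at 8.00 CPM against 226, 28.8 and 301 CPM. Tpm2, a tropomyosin, stood at 55.2 CPM against 266, 251 and 315 CPM, and Inhba, the activin A subunit, at 2.95 CPM against 78.7, 31.0 and 180.2 CPM. Single cells carried much of some sums: 26.2% of the Acta2 UMIs in late KIC and 37.1% in late KPC came from 1 cell. Cthrc1 was not called, with 72.0 CPM in normal pancreas, 313 CPM in late KIC and 20.7 CPM in late KPfC. The 7 pericyte markers, which belong to another contractile cell, summed to 21.9 CPM in normal fibroblasts and 131, 94.3 and 113 CPM in the tumours, with Higd1b at 0 in all 3; their part in the result was not tested.

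Matrix genes outside the class rule mostly were not called. Among 14 other collagens Col12a1 was higher (16.4 CPM against 81.0, 51.7 and 154 CPM) and Col14a1 lower (586 CPM against 173, 61.6 and 75.8 CPM). Of 16 matricellular and microfibril genes Tnc was higher and Lum lower; Tnc, tenascin C, had 2 UMIs in normal pancreas and 80.3, 10.8 and 248 CPM in the tumours, with 53.3% in late KIC and 59.5% in late KPC from 1 cell. None of 12 matrix-processing enzymes was called. Timp1, an inhibitor of matrix proteases, stood at 43.0 CPM in normal pancreas and 2676, 1352 and 1401 CPM in the tumours, 31.5- to 62.3-fold higher, whereas Timp2 stood at 2216 CPM against 757, 1051 and 666 CPM. Without mesothelial barcodes Col14a1 and Lum were no longer called.

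Of 12 measured inflammatory fibroblast genes 1 was higher and 4 were lower, beside 6.25% of all measured genes in each direction. Ccl2, the monocyte attractant, was higher, at 691 CPM in normal pancreas and 2279, 2275 and 4116 CPM in late KIC, late KPfC and late KPC; it was lower in macrophages of the same libraries. Clec3b (4933 CPM against 511, 334 and 268 CPM), Ly6c1, Has1 and Dpt of the same list were lower, and Il6 was not called (512 CPM against 654, 199.8 and 580 CPM). Of 16 growth-factor genes Wisp1 was higher and Igfbp5, Tgfb2, Wnt5a and Bmp4 were lower, read against the same share. The complement genes C4b (35.0 CPM against 596, 344 and 549 CPM) and Cfb (39.6 CPM against 216, 422 and 203 CPM) were higher, of 8 measured, beside the same 6.25%.

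All 6 measured MHC class II genes were called higher in fibroblasts, beside 6.25% of all measured genes. Cd74, the invariant chain, stood at 50.1 CPM in normal pancreas and 540.4, 1654 and 563 CPM in the tumours, and H2-Ab1 at 56.0 CPM against 246, 450 and 281 CPM. For none of the 6 was the fibroblast level at or above that of the remaining barcodes in every tumour, and macrophages of the same libraries held 5212 to 14787 CPM of Cd74. Macrophage markers summed to 35.4 CPM in normal fibroblasts (Adgre1 at 0) and to 102, 260.1 and 75.8 CPM in the tumours, where the macrophage share of barcodes was also higher; the part of macrophage RNA in the result was not tested. Without mesothelial barcodes H2-Eb1 was no longer 2-fold higher in every tumour, at 0.93 on the log2 scale.

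Hypoxia and glycolysis genes were called higher in 9 of 20 measured members in fibroblasts and lower in 2. Over all measured genes 6.25% were called in each direction. Slc16a3 stood at 2.95 CPM in normal pancreas and 65.0, 45.2 and 47.1 CPM in the tumours, and Egln3, an oxygen sensor induced by hypoxia, had 2 UMIs (0.842 CPM) against 53.5, 94.7 and 127 CPM. Adm, adrenomedullin, another hypoxia target, was lower, at 382 CPM against 57.3, 29.7 and 55.3 CPM, as was Pfkp. Among barcodes of 1 class free of other types' genes Slc2a1, Vegfa and Ero1l were below 2-fold. Cell-cycle genes Tyms, Stmn1 and Ccnb2 were higher, of 7 measured, beside the same 6.25%. Ccnb2 had no normal UMI and stood at 33.6, 27.1 and 43.0 CPM in the tumours.

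Among the 12 higher genes ranked by their smallest ratio, Saa3 led. Saa3 had no UMI among 2374652 normal fibroblast UMIs and stood at 514, 11042 and 4609.95 CPM in the tumours. Hp, haptoglobin, stood at 2.95 CPM against 439, 350 and 801 CPM, and Ereg, epiregulin, had 1 normal UMI against 155, 83.5 and 150 CPM. Calca, Serpinb2, Cdh2, Ecscr, Stmn2, Chst11 and Actn1 were also among the 12, Stmn2 at 9.26 CPM against 385, 267 and 700.4 CPM. The 12 lower genes ranked in the same way held Gsn and Inmt, with 356 UMIs in normal pancreas and none in any tumour (at least 24.4-fold lower in each), Opcml, Efhd1, Pcsk6, Krtdap, Tcf21, Lims2, Aspn, Lmo2, C1qtnf2 and Pcolce2. Tcf21, a transcription factor of quiescent stroma, stood at 288 CPM in normal pancreas and 18.3, 2.58 and 4.10 CPM in the tumours. Of 55 named higher genes and 47 named lower genes, 47 and 41 were also called without mesothelial barcodes.

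In T cells 961 genes were measured, 178 (18.5%) were called higher and 35 (3.64%) lower, and the split depended on the scale. The median log2 ratio of all measured genes was 0.78, 0.84 and 0.80 in late KIC, late KPfC and late KPC, beside 37.9% acinar UMIs in normal T cells. Centred on these medians 38 genes (3.95%) were higher and 48 (4.99%) lower, and the higher share of calls went from 83.6% to 44.2%. With totals that leave out acinar, haemoglobin, mitochondrial and ribosomal protein genes, 35 were higher. Of the 35 lower genes 25 were acinar or haemoglobin genes. Late KPC holds 27 T cells with 41183 UMIs and limits the genes measured: without it 3861 were measured, 1112 higher and 83 lower. Macrophage markers in the T cell sums stood at 9.53 CPM in normal pancreas (5 of 8 at 0, C1qa, C1qb and C1qc among them) and 540.1, 1133 and 291 CPM in late KIC, late KPfC and late KPC. At least 2 C1q UMIs were carried by 0 of 113, 17 of 66, 12 of 35 and 2 of 27 T cells, and the part of macrophage RNA in the T cell results was not tested. Of 42 named higher genes 14 were also called after centring, 17 of 38 among barcodes free of other cell types' genes and 10 of 34 when thinned.

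Tsc22d3 was the only lower gene whose level in normal T cells was at or above that of the remaining barcodes. It encodes GILZ, a target of glucocorticoids, and stood at 336 CPM in normal T cells and 152, 101 and 146 CPM in late KIC, late KPfC and late KPC. It was also lower in macrophages (362 CPM against 112, 71.1 and 74.7 CPM) and fibroblasts (288 CPM against 48.2, 29.7 and 32.8 CPM). The T cell ratios were 2.21 (1.78 to 2.75), 3.33 (2.09 to 5.59) and 2.30 (1.04 to 6.36). Among T cell barcodes free of other types' genes the smallest difference was -0.74 on the log2 scale, short of 2-fold.

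Genes of naive and memory T cells were not called in the uncentred comparison. After centring 4 of 5 measured (Ccr7, Lef1, Il7r and Klf2) were lower, beside 4.99% of all measured genes. Lef1, a transcription factor of naive T cells, stood at 278 CPM in normal pancreas and 19.8, 45.3 and 194 CPM in late KIC, late KPfC and late KPC. Ccr7, the receptor for homing to lymph nodes, stood at 564 CPM against 193, 232 and 364 CPM. In both the tumours lay below normal pancreas, least so in late KPC, where Lef1 had 8 UMIs. The uncentred late KPC intervals include equality for Lef1 (1.43-fold lower, 0.71 to 3.38) and Ccr7 (1.55-fold lower, 0.92 to 2.80). Satb1, the member not called on either scale, stood at 507 CPM against 110, 171 and 753 CPM, highest in late KPC. Of 5 measured coreceptor and signalling genes none was called with either scale.

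Of 5 measured regulatory T cell genes 2 were higher, beside 18.5% of all measured T cell genes. Tnfrsf4 (OX40) stood at 59.1 CPM in normal pancreas and 159.95, 372 and 291 CPM in the tumours, and Areg, an epidermal growth factor receptor ligand, had no normal UMI and 561, 342 and 169.97 CPM, but 85.7% of the late KPC UMIs came from 1 cell. The Areg level in T cells was below that of the remaining barcodes in late KPfC and late KPC, and Tnfrsf4 was not called after centring. Tnfrsf9 stood at 21.0 CPM against 36.8, 237 and 243 CPM, short of 2-fold in late KIC. Neither of the 2 measured checkpoint genes, Ctla4 and Rgs1, was called: Ctla4 stood at 66.7 CPM against 82.7, 116 and 267 CPM. Of 3 measured cytotoxic genes the chemokine Ccl4 was higher, at 9.53 CPM against 273, 483 and 219 CPM, below the remaining barcodes in late KIC and late KPfC, while Ccl5 stood at 541 CPM in normal pancreas, 151, 2265 and 0 CPM in the tumours.

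The 12 higher genes ranked by their smallest ratio, at their own level in T cells, were Dut, Snrpd3, Eif1ax, Lsm4, Cks2, Ndufab1, Pfdn2, 2700094K13Rik, Erh, Ywhaz, Park7 and Lsm6, of which Dut and Snrpd3 stayed higher after centring. Dut, which keeps uracil out of DNA, stood at 34.3 CPM in normal pancreas and 172, 136 and 169.97 CPM in the tumours, from 18, 191, 27 and 7 UMIs. Glycolytic Tpi1, Pgam1 and Gpi1 were higher, of 8 measured hypoxia and glycolysis genes, beside 18.5% of all measured genes. Tpi1 stood at 21.0 CPM against 383, 191 and 97.1 CPM. None of the 3 was at or above the level of the remaining barcodes in every tumour, and Gpi1 was not called after centring. Eno1 was not called, at 99.1 CPM against 914, 458 and 72.8 CPM. Of 18 S100, annexin and actin genes 6 were higher, and 1 after centring, S100a4 (40.0 CPM against 167, 383 and 243 CPM), beside 18.5% and 3.95% of all measured genes. None of the 6 was at its own level in T cells. No gamma delta or type 17 gene passed the filter. In late KPC 62.5% of the Cks2 UMIs came from 1 cell.

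Across the classes 11 genes were called higher and 4 lower in all 3 classes. The higher ones were Spp1, S100a8, Chil3, Mif, S100a9, Aprt, Il1b, Lsm4, Cox5a, Tpi1 and Dut, and the lower ones were the pancreatic secretory genes Spink1, Klk1 and Pnliprp2 besides Tsc22d3. These calls were uncentred, a scale on which 18.5% of all measured T cell genes were higher, against 3.95% after centring. In T cells Mif, Aprt, Lsm4 and Cox5a were not called after centring. The remaining higher genes and all 4 lower genes kept their T cell call. Mif, the macrophage migration inhibitory factor, stood at 168, 138 and 79.6 CPM in normal T cells, macrophages and fibroblasts. In late KIC it stood at 905, 1111 and 705 CPM, in late KPfC at 770.1, 902 and 586 CPM and in late KPC at 558, 1123 and 915 CPM. In T cells Spp1, Chil3, Il1b and Mif lay below the level of the remaining barcodes in every tumour. S100a8 and S100a9, abundant in neutrophils, are 2 of the 8 neutrophil markers used. In T cells the 8 summed to 34.3 CPM in normal pancreas and 3685, 1042 and 631 CPM in late KIC, late KPfC and late KPC. S100a9, Csf3r, Cxcr2, Mmp8 and Mmp9 were at 0 in normal T cells. Among tumour T cells, Csf3r was at 0 in late KIC, Mmp8 in late KPfC and Cxcr2, Mmp8 and Mmp9 in late KPC. The part of macrophage and neutrophil RNA in these results was not tested.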

How the data were processed

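Single-cell libraries were made with the 10x Genomics 3′ chemistry and the authors deposited whole-number UMI counts per gene and barcode; the submitters' processing notes name Cell Ranger 2.1.1 and GRCm38. The tables hold 27998 genes. Barcodes were filtered and assigned to classes by the stated rules, UMIs were summed per class and library, and sums were scaled to counts per 1000000 (CPM). Doublets were neither called nor removed. A count of 0 was set to 3 counts for a ratio, which is then a bound. Ratio intervals are exact binomial, levels exact Poisson, shares exact Clopper-Pearson. Named genes were, per class, the 12 called in each direction with the largest smallest ratio among those at least as high in the class as in the other barcodes on the higher side, called list members, up to 4 uncalled members per list, and genes called in all 3 classes, leaving out class-rule, acinar, haemoglobin, mt-, ribosomal protein, immunoglobulin and sex-linked genes from the first. Members and lists were chosen with earlier results of these data known. Settings were varied in 15 planned ways and 2 added after seeing the data. The procedure was tested on simulated data. Python 3.11.15, numpy 2.4.6, scipy 1.17.1, pandas 2.3.3 and matplotlib 3.10.9 were used.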

Additional observations from a re-analysis of the deposited data

How the results depend on the processing

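With 1 library per group every value rests on that library, and late KPC and the 41 normal macrophages set the depth. No paired analysis was possible because each group has 1 library and no test was run. In T cells 178 genes were called higher; the count was 36 with cells thinned to 1000 UMIs, 76 among barcodes without other cell types' genes, 36 with class cut-offs doubled, 84 from means of per-cell shares, 35 with totals without acinar, haemoglobin, mitochondrial and ribosomal protein genes, 38 centred, 340 at 1.5-fold, 58 at 3-fold, and 390 or 76 with at least 2 or 10 expected UMIs. Leaving out 1 tumour gave 199 to 1112 higher and 41 to 83 lower. In macrophages 517 were higher and 217 lower; the counts were 164 and 89 thinned, 907 and 379 at 1.5-fold, 245 and 109 at 3-fold, and 286 and 136 with at least 10 expected UMIs. In fibroblasts 278 were called in each direction; the counts were 138 and 141 thinned, 492 and 511 at 1.5-fold and 156 and 160 at 3-fold, and 339 to 421 lower genes without 1 tumour. Shares of barcodes with at least 500 genes and at most 10% mt- UMIs were 8.51% T cells, 3.12% macrophages and 33.0% fibroblasts in normal pancreas and 30.1% macrophages in late KPC. With doubled cut-offs they were 1.93%, 3.71% and 0.87% T cells in normal pancreas, late KIC and late KPC, and 42.4% and 17.3% macrophages in late KPfC and late KPC. Thinning and stricter minimums test fewer genes; otherwise the cause was not tested. Fabp4 in macrophages, with 1 normal UMI, went from 2.67 to -0.20 (smallest log2 ratio) when thinned.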

Other observations

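Of 14 measured genes of the response to oxidants 3 were higher in macrophages of all 3 late tumours, a share near the 14.8% of all measured genes. Txn1, thioredoxin, stood at 144 CPM in normal pancreas and 892, 743 and 1225 CPM in late KIC, late KPfC and late KPC, with ratios from 5.17-fold (3.50 to 7.99) to 8.53-fold (5.74 to 13.2). Prdx5, a peroxiredoxin, stood at 167 CPM against 1125, 1277 and 1079.5 CPM, and Slc7a11, the cystine importer, at 97.7 CPM against 774, 699.8 and 787 CPM, with 47.1% of the normal Slc7a11 UMIs from 1 cell. The tumours lay close together for all 3 genes. Proteasome subunits were higher in 5 of 14 members (Psma1, Psma4, Psma6, Psmb1 and Psmb5) and lower in none, against the same share. In fibroblasts Fth1, the ferritin heavy chain, stood at 5089.6 CPM against 12896, 23313 and 16482 CPM, and Hmox1, haem oxygenase 1, at 55.2 CPM against 125, 299 and 1397 CPM, highest in late KPC. Ddit3 (CHOP), a gene of the endoplasmic reticulum stress response, was lower in both classes, at 138 CPM against 51.2, 39.6 and 31.4 CPM in macrophages.

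The early KIC library, taken at 40 days and outside the comparison, gave values for the same genes. In its 685 macrophages Lyve1 stood at 130.2 CPM, Folr2 at 311 CPM and Arg1 at 180.3 CPM. In its 1408 fibroblasts Gsn stood at 11181 CPM, Pi16 at 645 CPM, Timp1 at 402 CPM and Acta2 at 22.99 CPM.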
